A study of Homo sapiens with 4 samples.

Results

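CpG-dense stretches of 1 kb that were already methylated in wild-type (WT) HEK293T cells are described here, with their location in the genome and their methylation after deletion of ZNF274. The autosomes (chr1 to chr22) were divided into 1 kb tiles, and a tile was kept when at least 60 CpGs were covered in it and at least 50 reads, counted once at every CpG they cross, fell on it in each library. The level of a tile is the percentage of these calls that were methylated (mCG level). Tiles were chosen on the WT values themselves, as those whose mean of both WT levels was 80% or more: 5284 of 20279 CpG-dense tiles (26.1%) met this rule and held 405993 CpGs.

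HEK293T is an immortalised human embryonic kidney cell line. The 4 enzymatic methyl sequencing (EM-seq) libraries were made from WT cells (2 libraries) and from ZNF274KO cells (2 libraries), in which CRISPR-Cas9 cuts on both sides of ZNF274 removed the gene and single cells were sorted after puromycin selection. ZNF274 is a zinc finger protein with KRAB and SCAN domains that takes part in forming repressive chromatin over zinc finger and protocadherin gene clusters. The labels do not say whether libraries of a genotype came from separate clones or cultures, so spread between them may be technical. The ZNF274 gene body (chr19:58694396-58724928) received 5158 and 4274 reads over its CpGs in the WT libraries against 0 and 14 in the ZNF274KO libraries, as the genotypes state. It held 0 CpG-dense tiles.

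Cytosine methylation at CpGs is laid down by DNMT3 enzymes and copied after replication by DNMT1. Most of a mammalian genome is methylated, while CpG islands, which often contain gene promoters, are usually kept free of it. Dense CpGs that are nonetheless methylated are known from bodies of transcribed genes, silenced germline promoters, imprinted regions, retroelements and repeats near chromosome ends, and in cultured tumour-like cells from promoters that acquired methylation.

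4 of these sequences are shown because their tiles carry some of the largest differences described further on. Each is the 300 bases with the most CpGs in its tile outside annotated untranslated regions, from the plus strand of GRCh37, with every CpG in capitals.
Near FRG2B, chr10:135454034-135454333: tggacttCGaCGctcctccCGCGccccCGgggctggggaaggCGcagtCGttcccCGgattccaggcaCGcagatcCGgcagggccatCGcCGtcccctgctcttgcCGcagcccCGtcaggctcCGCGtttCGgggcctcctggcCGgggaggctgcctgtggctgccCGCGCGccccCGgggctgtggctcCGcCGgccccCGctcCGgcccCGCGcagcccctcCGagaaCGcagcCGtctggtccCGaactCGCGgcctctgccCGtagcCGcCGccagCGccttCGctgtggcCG
Beside HBM, chr16:215302-215601: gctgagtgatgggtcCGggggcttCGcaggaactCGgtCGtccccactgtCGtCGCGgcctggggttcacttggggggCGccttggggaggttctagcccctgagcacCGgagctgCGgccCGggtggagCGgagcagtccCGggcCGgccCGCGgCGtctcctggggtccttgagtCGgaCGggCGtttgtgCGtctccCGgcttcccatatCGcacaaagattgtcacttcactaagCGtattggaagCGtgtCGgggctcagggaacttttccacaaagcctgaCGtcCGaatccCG
Near ISL2 and SCAPER, chr15:76639524-76639823: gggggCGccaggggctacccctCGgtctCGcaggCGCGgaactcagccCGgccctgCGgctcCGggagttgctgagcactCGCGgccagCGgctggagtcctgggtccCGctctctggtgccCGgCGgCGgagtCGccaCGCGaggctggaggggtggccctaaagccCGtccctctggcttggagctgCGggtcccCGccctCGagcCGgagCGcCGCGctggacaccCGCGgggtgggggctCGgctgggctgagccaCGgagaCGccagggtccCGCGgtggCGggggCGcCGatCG
In ZNF331, chr19:54041063-54041362: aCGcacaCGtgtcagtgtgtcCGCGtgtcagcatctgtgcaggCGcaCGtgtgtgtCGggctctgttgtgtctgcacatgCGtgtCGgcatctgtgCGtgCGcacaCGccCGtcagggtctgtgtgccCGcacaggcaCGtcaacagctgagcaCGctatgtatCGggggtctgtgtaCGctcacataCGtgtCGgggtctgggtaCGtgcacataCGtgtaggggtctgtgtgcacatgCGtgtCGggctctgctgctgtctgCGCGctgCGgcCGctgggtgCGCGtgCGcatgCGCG
The stretches from FRG2B and ISL2 held 40 and 37 CpGs, and that beside HBM held 29. The ZNF331 stretch held 33 CpGs in single-copy sequence rich in TG and CA.

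CpG-dense tiles split into a large unmethylated and a smaller methylated population. In WT cells 11785 tiles lay under 20% and 3210 between 20% and 80%, beside the 5284 methylated tiles. The last members inside the limit were chr7:158799001-158800000, far from any coding start (81.6% and 78.4% in WT), and chr19:37764001-37765000 in a zinc finger region (79.9% and 80.1%). The first tiles outside it were chr1:47910001-47911000 near FOXD2, a forkhead factor gene (80.1% and 79.9%), and chr20:62383001-62384000 in ZBTB46 (79.5% and 80.4%). Most members lay far above the limit, and 3725 had a WT mean of 90% or more.

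**Figure D1:**
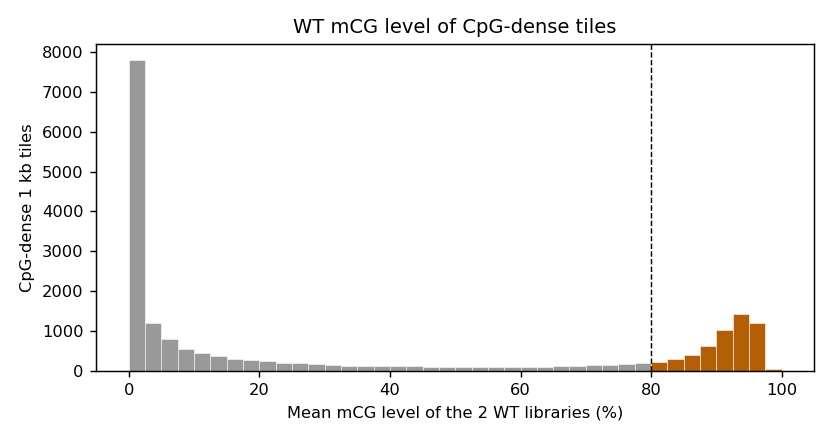
Number of CpG-dense 1 kb tiles (y axis) by mean mCG level of the 2 WT libraries (x axis, %, bins of 2.5 points). The dashed line is the 80% limit; the 5284 tiles to its right, in orange, are those described, and 11785 tiles lie under 20%.

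Methylated CpG-dense tiles lay mainly inside genes and away from their starts. Away from starts, a tile was classed as coding sequence when any coding base lay in it, even if most of it was not coding. Coding sequence held 1673 of them (31.7%), introns of coding genes 902 (17.1%), sequence between genes 782 (14.8%) and non-coding genes or pseudogenes 684 (12.9%). A coding gene began inside 531 (10.05%), and another 515 (9.75%) lay within 1 kb of such a start. Unmethylated tiles were placed the other way round, with a start inside 51.7% and coding sequence away from a start in 8.62%. Read per place, 7.21% of dense tiles with a coding start inside were methylated, against 52.1% in coding sequence, 53.9% between genes and 61.6% in introns. Position within genes was taken for tiles with their midpoint inside the gene, the longest one where genes overlapped. Members in coding sequence had a median position at 71% of the gene's length, and 765 of 1652 lay in its last 25%. That class leaves out tiles within 1 kb of a coding start. The median was 56.2% for all dense tiles of that class and 35.3% for its unmethylated tiles. In introns it was 42.8% for members and 37.3% for all dense tiles.

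**Figure D2:**
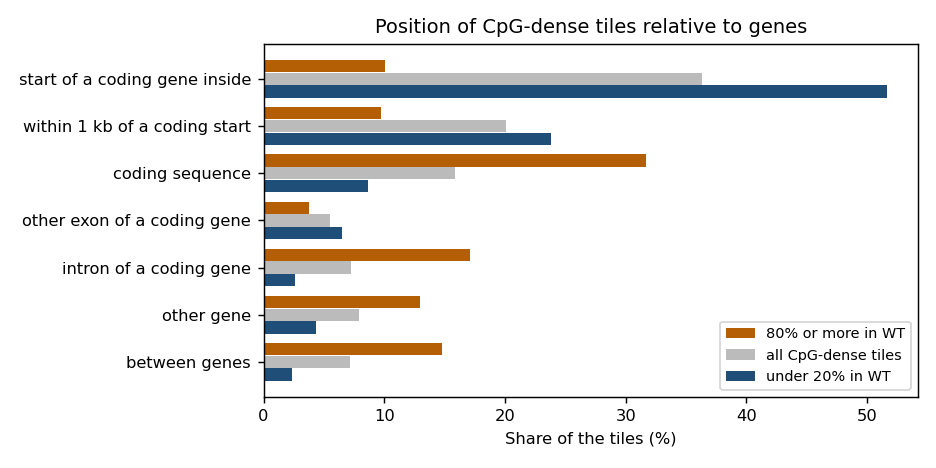
Share of CpG-dense tiles (x axis, %) by position relative to genes (y axis), for tiles at 80% or more in WT, all dense tiles and tiles under 20% in WT. Methylated tiles lead in coding sequence (any coding base in the tile, 31.7%), introns and between genes. Unmethylated tiles lead at gene starts (51.7%).

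Chromosome ends and repeats were the other common places. Of the members, 577 (10.9%) lay within 1 Mb of a chromosome end and a further 1040 (19.7%) within 5 Mb, against 4.41% and 12.4% of unmethylated tiles. The share of dense tiles that was methylated went from 23.2% farther inside to 42.0% within 1 Mb of an end. By chromosome it ranged from 19.9% on chromosome 3 (190 of 953) and 20.3% on chromosome 12 to 30.5% on chromosome 22 and 30.6% on chromosome 19 (472 of 1544), the chromosome with most KRAB zinc finger (KZFP) genes. Members were shorter of CpGs than unmethylated tiles (median 72 against 84) at a similar GC content (66.3% and 65.6%), with a median observed-to-expected CpG ratio of 0.700 against 0.815.

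Some of the members were repeats. In 992 members (18.8%) the 50-base pieces occurred a median of 2 or more times in the whole reference genome, and in 390 of these 10 or more times. In this last class 76.5% of dense tiles were methylated and 8 tiles were unmethylated. A period within the tile, meaning a shift of 5 to 300 bases at which at least 50% of positions matched, was found in 525 members (9.94%) and in 35 unmethylated tiles (0.297%). The hexamer CCCTCT in at least 2 tandem copies on either strand, which is how SVA retroelements begin, was present in 125 members (2.37%) and in 0.922% of all dense tiles. It was present in 36 of the 390 members of 10 or more copies. These shares describe sequence in the reference, and reads from repeated sequence can be placed at the wrong copy.

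Most members stood alone. The 5284 tiles formed 4403 runs of adjacent tiles, of which 3702 were single tiles. The longest, of 10 tiles, covered chr8:144990001-145000000 in PLEC, the gene of the cytoskeletal linker plectin, with mean levels of 95.14%, 95.04%, 94.06% and 94.05% in WT 1, WT 2, ZNF274KO 1 and ZNF274KO 2. The next covered chr22:20709001-20717000 at FAM230A with 8 tiles, and runs of 6 lay in CAPN15, MAPK8IP3 and between genes on chromosome 20. Beside an unmethylated island lay 174 members (3.29%), which adjoined a dense tile under 20% in WT.

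Around the members the level fell within 3 kb and then changed little up to 10 kb away. In WT it averaged 91.6% in both libraries at the tile itself, 80.3% to 80.4% at 1 kb and about 72% from 3 kb outwards, where tiles held a median of 15 to 17 CpGs. In the flanks ZNF274KO 1 was the highest and ZNF274KO 2 the lowest of the 4 libraries at all 20 distances from 1 to 10 kb on either side. In the members themselves the ZNF274KO libraries averaged 91.1% and 90.1%, each under either WT library.

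**Figure D3:**
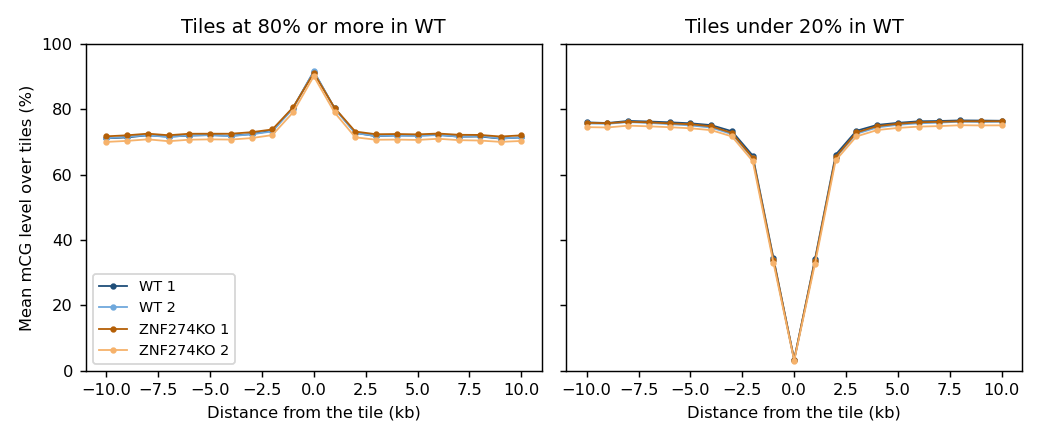
Mean mCG level over tiles (y axis, %) by distance from the tile in kb (x axis), for methylated (left) and unmethylated (right) CpG-dense tiles, with 1 line per library. Methylated tiles stand above flanks of about 72%, and unmethylated tiles at about 3% stand in flanks of about 76%.

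Methylation of these tiles stayed high after ZNF274 deletion. Pooled over all members the level was 92.1% in both WT 1 and WT 2, 91.6% in ZNF274KO 1 and 90.7% in ZNF274KO 2, a difference in group means of -0.94 points (SD 0.0404 in WT and 0.615 in ZNF274KO, n = 2 each). Both ZNF274KO libraries were lower, but they differed from each other about as much as from WT, and without ZNF274KO 2 the difference was -0.51. Over all CpG-dense tiles the levels were 27.4% and 27.3% in WT and 26.5% and 25.8% in ZNF274KO, a difference of -1.14 points (two-sided exact permutation p = 0.33, the smallest that 2 against 2 libraries can give). These pooled levels weight tiles by their reads, so a library's share of reads on methylated and unmethylated tiles enters the -1.14 points. Pooled within a class, the difference was -0.12 points in tiles under 20% in WT and -1.17 points in tiles between 20% and 80%. With every tile counted equally, the mean difference was -0.39 points over all dense tiles and -0.98 points over the members. No test is given for the members, because high WT values chose them. With members chosen on WT 1 alone, WT 2 took no part in the choice and stood at 91.8%, against 91.5% and 90.6% in ZNF274KO. With members chosen on WT 2 alone, WT 1 stood at 91.8%, against 91.4% and 90.6%.

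Single members shifted little. The difference of group means had a median of -0.88 points and quartiles of -2.15 and 0.33, and ranged from -21.2 to 12.7 points. Over all dense tiles the median was -0.12. Of the members, 5109 kept a ZNF274KO mean of 80% or more and 175 did not, while 183 other tiles reached 80% in ZNF274KO. The lowest ZNF274KO mean of a member was 59.2%. Of the members, 31 fell and 2 rose by 10 points or more in the mean. Of the tiles that reached 80%, which were picked for rising, 65 rose by as much, and 27 of these lay within 100 kb of a KZFP gene (3.09% of all dense tiles do) and 13 in the protocadherin clusters, which hold 53 dense tiles.

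No member was called changed. The quasi-likelihood test of edgeR with Benjamini-Hochberg adjustment over all dense tiles called 0 of 5284 members lower (0.069% of all dense tiles) and 0 higher (0.0986% of all dense tiles). At an unadjusted p under 0.05 it held 186 members (3.52%, 162 lower and 24 higher), fewer than the 5.79% of all dense tiles. limma called 0 members and held 106 (2.01%) at that limit, against 5.68% of all dense tiles. The lowest adjusted p of a member in edgeR was 0.0862. All 34 called tiles, 14 lower and 20 higher, had WT levels between 20% and 80%. A level near the top leaves little room for a rise, and a choice on high WT values favours a fall.

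Against the WT values that chose the members, differences shared by both ZNF274KO libraries were more often losses than gains. In 1582 members (29.9%) both ZNF274KO libraries were under both WT libraries, a pattern of 21.4% of all dense tiles. In 435 (8.23%) both lay above, a pattern of 12.7% of all dense tiles. The pooled level of ZNF274KO 2 was also the lowest of the 4 libraries over all dense tiles and in the flanks, and its part in these counts was not tested. From place to place, both lay below in 25.9% (other exons of coding genes) to 32.2% (within 1 kb of a coding start) of members, and above in 7.16% (coding start inside) to 10.4% (introns). No difference between places was tested.

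Losses and gains of a clear size were rare. Both ZNF274KO libraries lay at least 5 points below both WT libraries in 46 members (0.871%; 1.2% of all dense tiles) and at least 5 points above in 9 (0.824% of all dense tiles). At 10 points the counts were 6 below (0.222% of all dense tiles) and 1 above (0.212% of all dense tiles), and at 20 points they were 0 and 0. These counts use the WT values that chose the members. With tiles chosen on WT 1 alone, both ZNF274KO libraries lay at least 10 points under WT 2 in 15 tiles and at least 10 points over it in 25, and with tiles chosen on WT 2 alone they did so against WT 1 in 14 and 9, so the balance between losses and gains turned with the choice. Between the WT libraries alone, 33 members were at least 10 points lower in WT 2 and 33 at least 10 points higher. Between the ZNF274KO libraries, 73 were at least 10 points lower in ZNF274KO 2 and 20 higher.

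**Figure D4:**
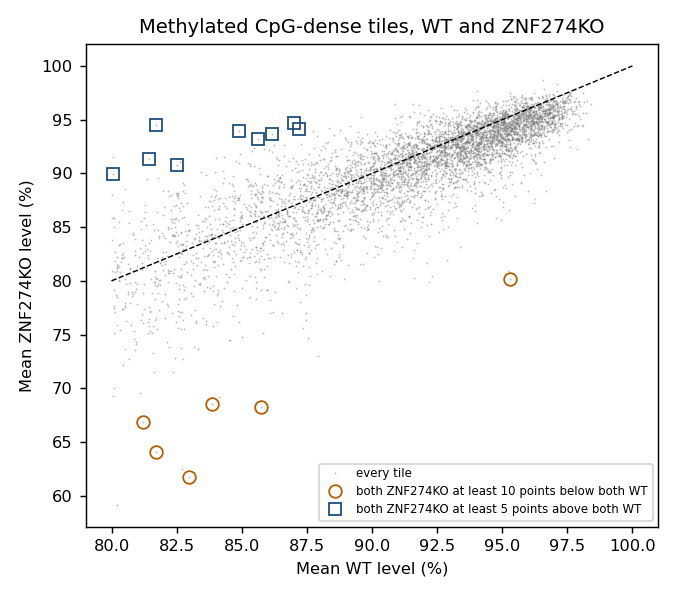
Mean ZNF274KO level (y axis, %) against mean WT level (x axis, %) of the 5284 methylated CpG-dense tiles, 1 dot per tile, with the line of equal levels dashed. The 6 circled tiles had both ZNF274KO libraries at least 10 points below both WT libraries, and the 9 squares at least 5 points above.

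The 46 tiles with a shared loss of 5 points were often repeats and were shallow. Their 50-base pieces occurred a median of 2 or more times in 26 of 46 (56.5%), against 18.8% of members. They carried a median of 264.5 calls per library, against 518.5 over the members. By depth, 11 of them came from the 242 members with 50 to 99 calls in their shallowest library and 8 from the 1776 members with 500 or more, and the SD of the differences fell from 4.66 to 1.93 points between those classes. Of the 46, 18 lay between genes (39.1%, against 14.8% of members), 11 in introns (23.9% against 17.1%), 6 in coding sequence (13.04% against 31.7%) and 6 within 1 kb of a coding start or across it (against 19.8%). Within 100 kb of a KZFP gene lay 2 (4.35% against 3.18%). Without repeated sequence, 1 of the 6 tiles with a loss of 10 points was left, and on a grid moved by 500 bases the count was 1.

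The tile beside HBM was the single-copy tile among those 6. HBM encodes the mu subunit of haemoglobin in the alpha-globin cluster, and chr16:215001-216000 ends in the first exon of its coding transcript and overlaps the pseudogene HBZP1 at its other side. Its levels were 85.3% and 86.2% in WT (95% Wilson intervals 82.1 to 88.0 and 82.0 to 89.6) and 66.4% and 70.1% in ZNF274KO (61.3 to 71.1 and 65.2 to 74.6), from 319 to 557 calls. The tile was picked for a gap of at least 10 points between the groups. Its difference was -17.5 points, and it had the lowest p of all members in edgeR (unadjusted 0.000195, adjusted 0.0862). Of the tiles on either side, the one before it averaged 40.7% in WT and 14.3% in ZNF274KO, and the one after it, over the body of HBM, 93.4% and 93.9%. Calls on 1 read are not independent, so these intervals cover counting error only and are too narrow.

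The largest fall of all was near the end of the long arm of chromosome 10. The tile chr10:135454001-135455000 lies 13702 bases from FRG2B, in the pseudogene AGGF1P2 and in sequence of about 3 copies. It had 80.6% and 85.4% in WT and 62.7% and 60.9% in ZNF274KO, from 64 to 157 calls. The tile was picked for its fall, and its groups were apart by 17.9 points, at an adjusted p of 0.274 in edgeR. A like tile near FRG2 on chromosome 4, chr4:190944001-190945000, had 84.0% and 81.5% in WT and 75.6% and 69.8% in ZNF274KO.

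The 4 remaining tiles with a loss of 10 points were repeats. In an intron of CYP7B1, which encodes an oxysterol hydroxylase, chr8:65598001-65599000 had 81.4% and 82.0% in WT and 66.7% and 61.4% in ZNF274KO. Between genes, chr8:52071001-52072000 had 83.4% and 84.3% against 67.1% and 69.9%. Adjusted p values in edgeR were 0.455 and 0.248 for these tiles, whose lack of overlap follows from how they were picked. In an intron of ANXA2, the gene of the membrane-binding protein annexin A2, chr15:60658001-60659000 had 95.2% and 95.4% in WT and 76.0% and 84.4% in ZNF274KO. In a non-coding gene 43749 bases from KIF16B, chr20:16208001-16209000 had 81.3% and 81.2% in WT and 70.5% and 63.2% in ZNF274KO. ANXA2 was the only one of the 6 that started above 90%.

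Other large falls joined a spread between WT libraries. In MATCAP1, which encodes a tubulin carboxypeptidase, chr16:67212001-67213000 had 64.8% in WT 1 and 95.7% in WT 2, against 56.2% and 62.1% in ZNF274KO. WT 1 lay nearer to the ZNF274KO libraries than to WT 2, so the mean difference of -21.1 points rested on WT 2. Near ISL2, a LIM-homeodomain gene, and 245 bases from SCAPER, chr15:76639001-76640000 was the most deeply covered of the named falls, with 811 to 1074 calls. It had 92.3% and 83.6% in WT and 75.4% and 70.5% in ZNF274KO. In a long non-coding RNA gene near GTDC1, chr2:144694001-144695000 had 90.6% and 77.6% against 73.5% and 64.9%. The adjusted p values of these 3 tiles in edgeR were 0.80, 0.15 and 0.39.

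The 3 other tiles among the 12 largest falls without group overlap had smaller losses or few calls. In ZFPM1, chr16:88601001-88602000 fell by more in the mean, -20.2 points, but its groups overlapped. In an intron of PTPN4, a tyrosine phosphatase gene, chr2:120601001-120602000 had 96.2% and 94.2% in WT and 77.6% and 84.3% in ZNF274KO, from 67 to 132 calls in repeated sequence. Between genes near CTDP1, chr18:77377001-77378000 had 89.9% and 85.2% against 75.4% and 74.0%. Near SMTN, also in repeated sequence, chr22:31423001-31424000 had 91.0% and 93.4% against 85.5% and 74.2%, from 78 to 151 calls. Adjusted p values in edgeR lay between 0.374 and 0.696.

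**Figure D5:**
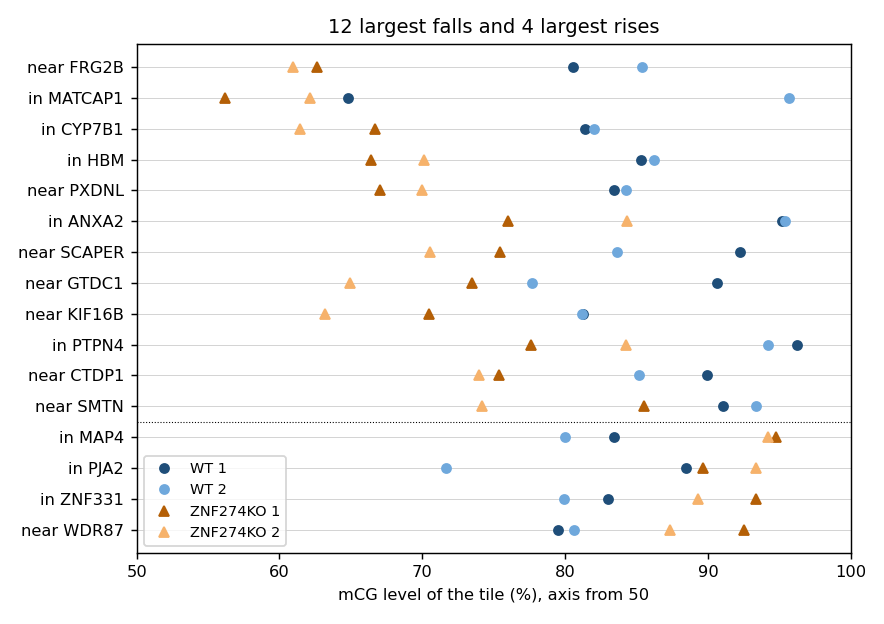
mCG level of the 12 largest mean falls (above the dotted line) and 4 largest mean rises (below it) among members without group overlap. There is 1 point per library (x axis, %, starting at 50), and tiles are named by the gene that holds or is nearest to them. Circles are WT and triangles ZNF274KO, and the 2 WT circles of the MATCAP1 tile lie at 64.8% and 95.7%.

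Of the 9 shared gains of 5 points 3 lay on chromosome 19, as did 3 of the 46 shared losses, and the chromosome holds 8.93% of members and 7.61% of all dense tiles. Within 100 kb of a KZFP gene lay 4 of the 9 gains, against 2 of the 46 losses and 3.18% of members. The largest gain was in a repeat in an intron of MAP4, the gene of a microtubule-associated protein, where chr3:48097001-48098000 had 83.4% and 80% in WT and 94.7% and 94.2% in ZNF274KO. The other member that rose by 10 points or more in the mean was no shared gain of 5 points: in PJA2, a ubiquitin ligase gene, chr5:108677001-108678000 had 88.5% and 71.7% against 89.7% and 93.3%, so that WT 1 lay close to ZNF274KO 1. ZNF331, an imprinted KZFP gene, held 2 tiles that gained: chr19:54041001-54042000 had 83.0% and 79.9% in WT and 93.4% and 89.3% in ZNF274KO, and chr19:54057001-54058000 had 86.5% and 84.8% against 93.7% and 92.6%. Both tiles beside the first were also higher, at 52.7% and 46.6% in WT and 79.8% and 77.1% in ZNF274KO. Between WDR87 and ZNF573, chr19:38346001-38347000 had 79.5% and 80.6% in WT and 92.5% and 87.3% in ZNF274KO. Adjusted p values in edgeR of the 4 largest gains in the mean without group overlap, PJA2 among them, ran from 0.188 to 0.780.

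Members near KZFP genes were few. Of the 5284 members 168 lay within 100 kb of a KZFP gene, 3.18% against 3.09% of all dense tiles, and 38 lay in the body of one. Near these genes both ZNF274KO libraries were below both WT libraries in 48 and above in 27 (28.6% and 16.1%), with a median difference of -0.38 points. Farther away the shares were 29.98% and 7.97% and the median -0.90 points. Pooled by reads, the members near KZFP genes had 91.9% and 91.8% in WT, 92.6% in ZNF274KO 1 and 91.3% in ZNF274KO 2. The ZNF274KO libraries thus lay on opposite sides of both WT libraries. At starts of KZFP genes, 124 of 348 genes had a dense tile within 1 kb and 8 genes a member. Of these 8 tiles 0 were called, and the median difference was -0.99 points, against -0.88 over the members and -0.12 over all dense tiles. Without overlap 3 were lower and 1 higher, patterns of 29.9% and 8.23% of members and of 21.4% and 12.7% of all dense tiles. The tile at ZNF662, chr3:42947001-42948000, had 83.5% and 86.5% in WT and 82.1% and 76.6% in ZNF274KO.

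Protocadherin tiles were methylated in part. The alpha, beta and gamma clusters (chr5:140165721-140892544), whose large first exons encode the outer parts of neuronal adhesion molecules, held 53 dense tiles, of which 10 were members and 8 of these lay in alpha exons. Pooled, the 10 members had 84.5% and 84.3% in WT and 89.2% and 85.3% in ZNF274KO. ZNF274KO 1 stood apart from the other 3 libraries. Both ZNF274KO libraries were above both WT libraries in 5 tiles and below in 1 (12.7% and 21.4% of all dense tiles, 8.23% and 29.9% of members), and the median difference was 2.55 points. The largest was in the PCDHA1 exon, chr5:140167001-140168000, with 80.2% and 82.5% in WT and 93.1% and 85.8% in ZNF274KO (adjusted p = 0.521 in edgeR). The gap between the groups was 3.25 points in that tile and 0.08 to 1.08 points in the rest of the 5. It was 0.04 points in the tile that was below. Only the first of these gaps exceeded the median counting error of a member, 2.19 to 2.56 points. The other 43 dense tiles of the region, under 80% in WT, had a median difference of 7.54 points. By the 1 kb rule for starts, 7 of 53 protocadherin genes had a dense tile and 1 a member, PCDHGC3, with a difference of -1.30 points.

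Starts of germline genes were members in part. Of 31 germline genes, whose islands are methylated outside the germ line, 30 were found among the coding genes of the autosomes. Of these, 13 had a dense tile at the start and 9 a member: BOLL, DMRT1, FKBP6, MEIOB, MOV10L1, SLC25A31, SYCE1, TDRD9 and ZPBP2. Of their 11 tiles 0 were called, and the median difference was -1.64 points, against -0.88 over the members. Without overlap 4 were lower and 1 higher, near the members' shares of 29.9% and 8.23% (21.4% and 12.7% of all dense tiles). The largest was at DMRT1, a factor of testis development, where chr9:842001-843000 had 86.2% and 87.4% in WT and 82.6% and 77.2% in ZNF274KO. The other DMRT1 tile, chr9:841001-842000, which holds the gene start, had 82.7% and 79.0% against 84.3% and 81.3%. SYCE1, a gene of the synaptonemal complex, had 83.3% and 85.7% against 89.8% and 85.9%. These levels came from 98 to 170 calls, and the groups were apart by 0.17 points. At FKBP6 the levels were 95.6% and 95.6% against 92.7% and 93.4%.

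Islands that are often methylated in tumours were members at 3 of 23 genes, GATA5, RASSF1 and SFRP2. Of the 23 genes, 18 had a dense tile at the start. None of the 3 tiles was called, 1 was lower without overlap (29.9% of members and 21.4% of all dense tiles were), and the median difference was -1.51 points. At GATA5, a cardiac transcription factor gene, the levels were 93.5% and 93.5% in WT and 90.2% and 92.0% in ZNF274KO. At RASSF1, a tumour suppressor gene, they were 92.3% and 94.5% against 93.1% and 90.6%, with overlap.

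Imprinted genes normally carry methylation on 1 parental copy, and at 5 of 26 listed genes, of which 23 were found among those coding genes, a tile at the start was methylated at 80% or more: PEG3 and ZIM2, which share a tile, MEST, DLK1 and NNAT. Of the 23 genes found, 15 had a dense tile at the start. None of the 4 member tiles was called, 2 were lower without overlap (29.9% of members and 21.4% of all dense tiles were), and the median difference was -2.53 points. The tile of PEG3 and ZIM2, chr19:57351001-57352000, had 89.6% and 90.5% in WT and 83.3% and 81.2% in ZNF274KO, a difference of -7.81 points. At MEST the levels were 92.3% and 92.0% against 89.9% and 89.1%. Members away from the starts were not counted in this list. Among the listed genes, the ZNF331 tiles described above gained. In GRB10, chr7:50850001-50851000 had 98.3% in both WT libraries and 89.7% and 96.7% in ZNF274KO. PEG3 and ZIM2 also belong to the zinc finger lists, so that 1 tile enters 3 lists.

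The remaining lists held differences in both directions. Their counts without overlap stand beside 29.9% lower and 8.23% higher of members, and 21.4% and 12.7% of all dense tiles. Of 39 HOX genes, 26 had a dense tile at the start and 5 a member. Of these 5 tiles 0 were called, 0 were lower and 2 higher without overlap, and the median difference was -0.07 points. At HOXC11 the levels were 82.9% and 81.9% in WT and 86.4% and 83.7% in ZNF274KO, and at HOXC12 they were 94.95% and 94.23% against 94.6% and 90.3%. Genes with C2H2-like fingers in which the sequence rule found no KRAB stretch, a class that takes in ZKSCAN7, a known KRAB gene, and OTOP3, no zinc finger gene, had 21 members at 16 of 235 starts, with 0 called, 6 lower and 4 higher without overlap and a median of 0.01 points. A dense tile lay at the start of 151 of these 235 genes. At ZFP42, a pluripotency gene, the levels were 94.6% and 97.1% in WT and 95.2% and 84.4% in ZNF274KO. At EGR3, an immediate early gene, they were 85.1% and 85.3% against 92.7% and 89.3%.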

How the data were processed

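Whole-genome CpG methylation was measured by EM-seq in 2 WT and 2 ZNF274KO HEK293T libraries, grouped by their labels. In this enzymatic conversion an unmethylated cytosine is read as T. The authors aligned the reads with Msuite2 and hisat2 to hg19 with rDNA added and deposited raw read counts per CpG, base call and strand, for each library separately. Filters on mapping quality and duplicates were not given in the sources used here. Columns with C and T counts on both strands were used.

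All 26540102 CpGs of the autosomes fell on a CG of GRCh37, in which 1-based coordinates are given. Libraries held 230828955 to 281998073 reads over these CpGs, with a median depth of 8 to 10 per CpG and genome-wide levels of 59.5% to 61.5%. Counts were summed over 1 kb tiles: 20442 had at least 60 CpGs, of which 163 failed the minimum of 50 reads. A tile's median counting error was 2.19 to 2.56 points (the margin of a 95% Wilson interval on either side) in members. Reads cross several CpGs and may be duplicated, so it is a lower limit.

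Methylated and unmethylated counts were compared in R 4.3.3 by edgeR 4.0.16, using its quasi-likelihood test with terms for each library's coverage and for the log-odds of methylation in each genotype, and Benjamini-Hochberg adjustment over 20279 tiles and calls at 0.05. The first fit, with a negative binomial dispersion trend, missed the changed tiles in simulated data. It was replaced by a fit with that dispersion at 0, which found most of the larger of these, missed most of the smaller ones, at 10 points, and called more unchanged tiles than its threshold allows. A member that lost about 10 points could thus go uncalled. Larger losses could go uncalled too, although most of the larger simulated ones were found. In these libraries the member with the largest fall in the mean, near FRG2B, was uncalled in edgeR (adjusted p = 0.274). The tile beside HBM was also uncalled (adjusted p = 0.0862). The change of fit was made after the first fit's results were seen, and both fits called 0 members. limma 3.58.1 used log2 ratios with a pseudocount of 1.

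Genes came from GENCODE release 44 on GRCh37, and a start is the first base of the gene model, not of each transcript. KZFP genes (348) were coding genes with at least 3 C2H2 fingers and a KRAB-like stretch, a rule that misplaces some genes. Repeats were judged from 50-base stretches every 25 bases. Named tiles were the 12 largest falls and 4 largest rises in mean level among members whose groups did not overlap, counting tiles within 10 kb once, the tiles next to the 80% limit, and for each gene list the largest changes at starts. The tile near FRG2 and the second ZNF331 tile were added after their values were seen, as were FKBP6 and the PCDHA1 tile. The tiles in GRB10 and ZFPM1 met none of these rules and were likewise added after their values were seen. Limits of 5 and 10 points were added after the count at 20 points was seen. A gene of the tumour list and some sequences are not reported here. The members and lists were chosen with earlier results of these data known. The alternatives were other read and CpG minimums, a moved grid, other limits and choices of members, a depth limit, no repeats, limma, centring, a replicate block and each library left out. Python 3.11.15, numpy 2.4.6, pandas 2.3.3 and scipy 1.17.1 were used.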

Additional observations from a re-analysis of the deposited data

How the results depend on the processing

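The count of members called was 0 lower and 0 higher in limma. In edgeR it stayed at 0 lower and 0 higher with read minimums of 20 and 100, at least 50 CpGs and the moved grid. It also did so with deep CpGs or repeats left out, centring, a limit of 90% and choice on either WT library. It was also 0 with the negative binomial fit (added after seeing the data), which found nothing in data tested with known answers, and with each library left out (0 to 0), where 1 group has a single library assumed to vary like the other group, and neither of these shows stability. With the replicate number as a block, 10 members were called lower and 3 higher, against 120 and 103 of all dense tiles. The labels do not say whether libraries of the same number were prepared together. The WT 1 minus WT 2 difference correlated with the ZNF274KO 1 minus ZNF274KO 2 difference at 0.00588 over members and 0.0268 over all dense tiles. With 2 pairs and counting error in every level, this correlation cannot decide whether the numbers pair the libraries. With a limit of 70%, which takes in 5928 tiles, 3 were called lower and 6 higher (14 and 20 over all dense tiles), and 2 lay at least 20 points below. With tiles chosen on ZNF274KO, a choice that favours rises, 16 of those 20 were called higher. The 6 members with a loss of 10 points became 1 on the moved grid, 1 without repeats, 1 at a limit of 90%, 1 when chosen on ZNF274KO and 11 at 70%. With a library left out, they ranged from 19 (without WT 2) through 22 (without WT 1) and 24 (without ZNF274KO 2) to 45 (without ZNF274KO 1), since 3 libraries overlap less easily, and those with 20 points from 0 to 3. The pooled difference ranged from -1.38 (without ZNF274KO 1) to -0.51 points (without ZNF274KO 2), and was -0.45 for tiles chosen on ZNF274KO. Of the 16 named tiles 7 passed the threshold with the block. Their directions did not turn, which leaving out a library could not do, since they were chosen without overlap. Depth limits single tiles most in repeats. Levels rest on 64 to 181 calls in the tiles near FRG2B, KIF16B and SMTN and in CYP7B1, ANXA2, PTPN4, MAP4 and PJA2. At SYCE1 they rest on 98 to 170 calls. Except where 3 libraries overlap less easily, the cause was not tested.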
